A study of Mus musculus with 4 samples.

Results

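The miRNAs described here are those with a miRBase number of at least 5000 and below 9000, which entered the catalogue late, mostly from deep sequencing. They were chosen by number alone, as every miRNA with at least 1 read in any of the 4 samples whose name, without the species prefix, carries such a number. This gave 189 of the 869 miRNAs detected in the series. The lowest number was that of miR-5099 and the highest that of miR-8118. On either side of the range the nearest detected miRNAs were miR-3970, and miR-9769-3p. In the order NC-1, NC-2, GAA-1, GAA-2, which holds wherever 4 values are listed, they had 1, 0, 0 and 2 reads and 3, 8, 11 and 10 reads.

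Small RNA was sequenced from C2C12 myotubes, which form when the cells of this mouse skeletal myoblast line fuse in low-serum medium. All samples came from this 1 line (strain background given as 129/Rej) and were taken 6 days after differentiation was induced in high-glucose DMEM with 2% horse serum. The medium of the NC samples (NC-1 and NC-2) held no guanidinoacetic acid, and that of the GAA samples (GAA-1 and GAA-2) held 20 mM of it, a precursor of creatine. The comparison asks which miRNAs respond to GAA during myotube formation. The labels do not say whether the samples of a group were separate cultures, so p-values measure only the spread between these samples, which may be technical.

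A canonical miRNA is cut from a hairpin in the nucleus by Drosha and then by Dicer, which leaves a duplex of a 5p and a 3p strand, and the strand kept in Argonaute pairs with mRNAs through its seed. A mirtron takes another route, in which the hairpin is an intron, or ends at an intron border, and splicing replaces the cut by Drosha at that end. Short reads can also be pieces of small nucleolar RNAs, tRNAs or mRNAs, and several entries in late releases of miRBase lie within such genes. Members whose number has no arm suffix were annotated from a single strand.

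Mature sequences were available from RefSeq (GRCm38.p6) for 164 of the 189 members, which held 6181 of the members' 8626 reads. Those printed next are the most abundant members, those furthest apart between NC and GAA, and those whose place in the genome differed most from the usual hairpin. They are written 5′ to 3′ as RNA, with the seed (bases 2 to 8) in capitals.
miR-6240: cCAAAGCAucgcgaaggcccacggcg
miR-6944-3p: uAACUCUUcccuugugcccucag
miR-7068-3p: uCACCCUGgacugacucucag
miR-5114: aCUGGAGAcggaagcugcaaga
miR-8112: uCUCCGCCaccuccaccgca
miR-8114: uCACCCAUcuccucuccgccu
miR-5100: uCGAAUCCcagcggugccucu
miR-5121: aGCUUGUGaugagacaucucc
miR-6516-5p: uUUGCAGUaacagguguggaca
miR-6412: uCGAAACCauccucagcuacua
miR-5126: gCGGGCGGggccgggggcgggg
None of these share a seed with each other. Among the matched members only 3 seeds occurred in more than 1 member, each in 2, namely AGGAUGA in miR-6960-5p and miR-7093-5p, CUGAGCU in miR-6945-3p and miR-6927-3p, and GGGCUGA in miR-6911-5p and miR-7662-5p. A further 6 members carried the seed of a detected miRNA outside the range, among them miR-6240, whose seed is that of miR-330-3p.

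The genomic places of these miRNAs were read from GRCm38 coordinates and the GENCODE M21 annotation. miR-6240 lies at chr5:114851973-114851998 on the plus strand and miR-6412 at chr10:122648412-122648433 on the plus strand, both outside annotated genes. The hairpin of miR-6944 fills a 96-nt intron of Dbn1, with the 3p strand at chr13:55477681-55477703 on the minus strand ending at the last base of the intron. The hairpin of miR-7068 fills a 74-nt intron of Cherp in the same way, with its 3p strand at chr8:72470016-72470036 on the minus strand. Dbn1 encodes the actin-binding protein drebrin, and Cherp encodes an endoplasmic reticulum protein linked to splicing.

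Other abundant members lie in exons or in genes of other small RNAs. miR-5114 lies in an exon of Scd2, a stearoyl-CoA desaturase (chr19:44303171-44303192, plus strand, coding and UTR sequence depending on the transcript). miR-8112 lies in a UTR of Krcc1 (chr6:71271745-71271764, plus strand) and miR-8114 in a UTR of Glul, the gene of glutamine synthetase (chr1:153899989-153900009, plus strand). miR-5121 lies inside Snord33, a small nucleolar RNA gene within an intron of Rpl13a (chr7:45126925-45126945, minus strand), and its sequence occurs in the Snord33 transcript. miR-6516-5p lies over the small RNA gene Gm26083, within the host transcript Snhg20 (chr11:117077370-117077391, plus strand). For these 5 members, reads of the miRNA and pieces of the same-strand host RNA cannot be told apart. For miR-6240, miR-6412, miR-5100 and the other members, matches in the genome outside annotated transcripts were not searched. Whether their reads are pieces of other RNAs was not tested. miR-5100 (chr11:60728698-60728718, plus strand) lies inside an intron of Mief2. miR-5126 (chr1:84695890-84695911, plus strand), whose bases are 100% G or C, lies on the strand opposite Dner.

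Each deposited value was the log2 of RPM + 1, where RPM is reads per 1000000 mappable reads, from which the whole reads behind every value of a member were recovered. The samples held 1653803 and 2065461 miRNA reads (NC) and 3134241 and 2850828 (GAA), of 4924776, 4732359, 5566502 and 5657704 mappable reads. In that order 1 read was worth 0.203, 0.211, 0.180 and 0.177 RPM, and a sample without reads allows a level of up to 0.609, 0.634, 0.539 and 0.530 RPM, the worth of 3 reads. Intervals and this limit cover counting error only. The GAA samples thus held more miRNA reads per mappable read than the NC samples. The median log2 fold change of the 371 miRNAs with at least 1 RPM in every sample was 0.49 in RPM, against 0.04 relative to miRNA reads and -0.01 with median-of-ratios factors. Muscle miRNAs were present in every sample, from 1.41 RPM of miR-208b-3p in GAA-2 to 6700 RPM of miR-486a-5p in GAA-1. The liver miR-122-5p (0, 0, 3.05 and 0.354 RPM), the blood cell miR-142a-3p (1.06 to 2.52 RPM) and the neuronal miR-124-3p (0.177 to 0.359 RPM) were low, and any part of such cells in the results was not tested. Fewer cells of a type and less RNA per cell cannot be told apart in such bulk samples.

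The late-annotated miRNAs were numerous but rarely read. They made up 21.7% of the detected names and between 0.0703% and 0.124% of the miRNA reads of a sample. Found with at least 1 read were 73 and 78 of them in NC and 103 and 102 in GAA. A single read was all that stood behind 45, 44, 55 and 55 of these detections, which is 61.6%, 56.4%, 53.4% and 53.9% of the members found in each sample. Among the other miRNAs the corresponding shares were 13.5% to 15.4%. Over the 4 samples together 83 members had 1 read in all, 38 had 2, 43 had 3 to 9, 21 had 10 to 99 and 4 had 100 or more. Those last 4 members, miR-6240, miR-5099, miR-6944-3p and miR-5114, held 87.3% of the members' reads.

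More members were detected in samples with more miRNA reads, and both GAA samples had more of these than the NC samples. The order of the samples by mappable reads did not match that by members. Each sample was thinned by exact formula to 1653803 miRNA reads, the depth of NC-1. Detection of 73, 68.8, 71.7 and 75.1 members was then expected. Whether the larger miRNA share of the GAA samples came from the treatment was not tested. At that common depth the GAA samples lay on either side of NC-1, and the surplus of the GAA samples was gone. The thinning cost GAA-1 30.4% and GAA-2 26.4% of their members, but 8.63% and 7.81% of their other miRNAs. Thinned to equal mappable reads instead, the 4 samples kept 71.2, 78, 94.3 and 92.5 members, so that the GAA samples stayed above the NC samples on this scale.

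**Figure D1:**
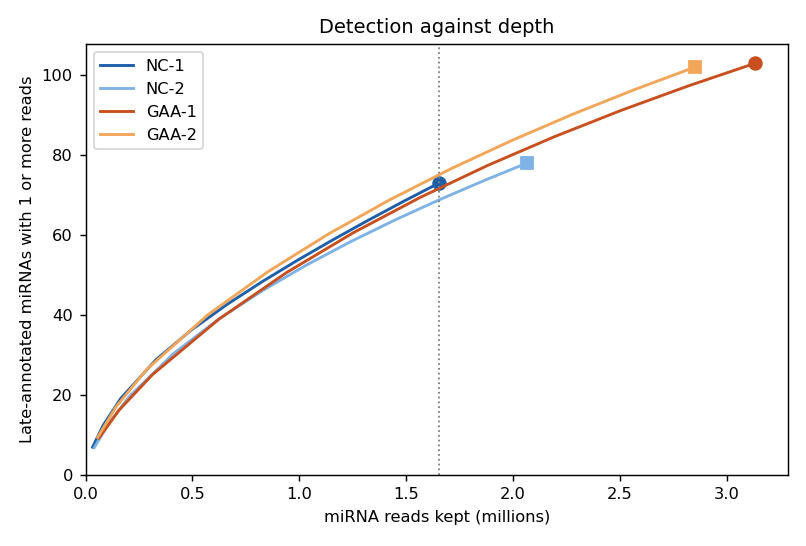
Number of late-annotated miRNAs with at least 1 read (vertical axis) expected when part of the miRNA reads of a sample is kept (horizontal axis, in units of 1000000 reads), with 1 line for each sample and its full depth as a symbol. The dotted line marks the depth of NC-1, where the 4 lines lie between 68.8 and 75.1 members, and no line has levelled off at full depth.

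Only a small core was found in every sample. Of the 189 members, 27 (14.3%) were read in all 4 samples, 22 in 3, 42 in 2 and 98 (51.9%) in a single sample. Of the other 680 miRNAs, 470 (69.1%) were read in all 4. NC-1 and NC-2 shared 33 members, which is 45.2% of those in NC-1 and 42.3% of those in NC-2, and GAA-1 and GAA-2 shared 57, or 55.3% and 55.9%. An NC and a GAA sample shared 40 to 48 members, which is 39.2% to 63.0% of the members of either sample, a range that holds the shares within groups. Requiring at least 2, 5 or 10 reads in every sample left 16, 10 and 4 members. The 4 with at least 10 reads everywhere were miR-6240, miR-5099, miR-6944-3p and miR-8112.

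The number of reads in 1 replicate separated members that were found again from those that were not. A member with 1 read in a sample was read in the other sample of its group in 62 of 199 cases (31.2%), with 2 reads in 45.1%, with 3 to 4 reads in 73.7%, with 5 to 9 reads in 96.6% and with 10 or more reads in 39 of 39 cases. Other miRNAs with 1 read were found again in 57.5% of cases, and those with 5 to 9 reads in 95.9%. The gap between members and other miRNAs was thus seen up to 4 reads and not from 5 reads on. In single directions, 87.5% to 100% of the members with 5 to 9 reads were found again. From NC-1 to NC-2 all 3 members with 3 to 4 reads were already found again.

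**Figure D2:**
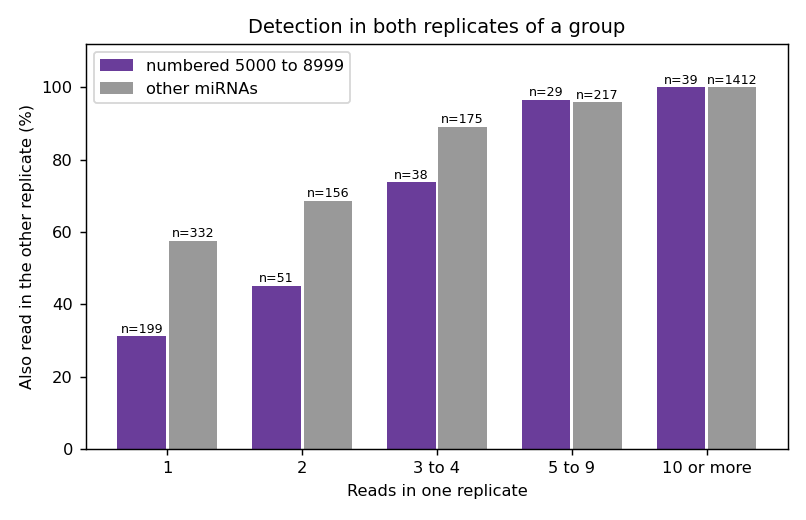
Percentage of miRNAs with a given number of reads in 1 replicate (horizontal axis) that also had a read in the other replicate of the same group (vertical axis, %), pooled over the 4 directions, for the late-annotated miRNAs and for the other miRNAs, with the number of cases as n. The late-annotated bars climb from 31.2% at 1 read to 96.6% at 5 to 9 reads.

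miR-6240 and miR-5099 carried most of the signal. miR-6240 had 1373, 861, 1080 and 1474 reads, which is 279, 182, 194 and 261 RPM. The groups overlapped, and miR-6240 ranked 93 among all 869 miRNAs by mean RPM. miR-5099 had 396, 319, 726 and 847 reads, which is 80.4, 67.4, 130 and 150 RPM. In RPM both GAA samples lay above both NC samples. Relative to 1000000 miRNA reads the values were 239, 154, 232 and 297, and the groups overlapped. Together these miRNAs held 86.2%, 81.3%, 77.4% and 83.2% of the members' reads, and the other 187 members shared 284, 271, 527 and 468 reads.

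The next most abundant member was miR-6944-3p, which lies in the Dbn1 intron, with 46, 38, 169 and 102 reads, or 9.34, 8.03, 30.4 and 18.0 RPM. In RPM both GAA samples lay above both NC samples, and the 95% Poisson intervals of the GAA samples lay above those of the NC samples. The same order of levels in RPM was found for 56.5% of the miRNAs read in all 4 samples. Relative to miRNA reads both GAA samples also lay above both NC samples, but on that scale the intervals of NC-1 and GAA-2 overlapped. The separation of the intervals thus held in RPM only. The exonic miR-5114 had 8, 26, 44 and 23 reads, and miR-6539 had 8, 24, 37 and 25, with NC-1 the low sample in both and the groups overlapping. miR-8112 (15 and 14 against 33 and 32 reads) and miR-8114 (10 and 9 against 24 and 24) each gave nearly the same number in the samples of a group. Both lie in UTRs, and both stood higher in RPM in the GAA samples.

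Of the remaining abundant members, miR-5106 had 36, 13, 7 and 29 reads and miR-5100 had 20, 8, 9 and 13. In each case the gap between NC-1 and NC-2 was wider than that between the means of NC and GAA. miR-6516-5p had 12, 9, 21 and 11 reads with overlapping groups in RPM. miR-5121, which lies inside Snord33, had 6 and 4 reads against 15 and 19. miR-6538, of which 94.7% of the bases are G or C, had 10 and 6 against 4 and 8.

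**Figure D3:**
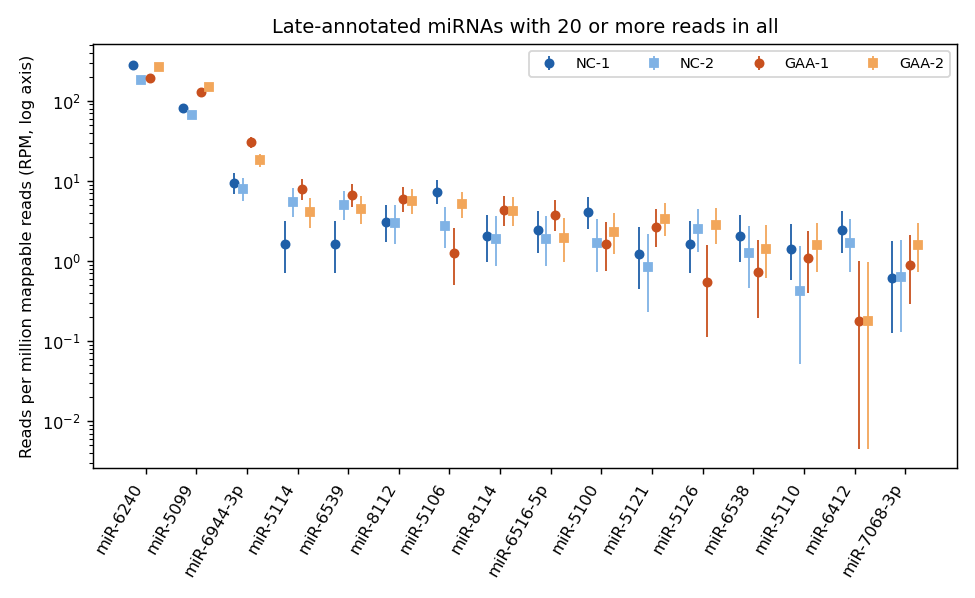
Level of each late-annotated miRNA with at least 20 reads over the samples (vertical axis, RPM, log scale), with 1 symbol per sample in the same order and bars for the 95% exact Poisson interval of the reads. miR-6240 (182 to 279 RPM) and miR-5099 (67.4 to 150 RPM) lie far above the rest, and only miR-6944-3p otherwise passes 10 RPM.

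Summed over all members, the level was 417 and 307 RPM in the NC samples and 419 and 493 RPM in the GAA samples (362 ± 78.0 against 456 ± 52.2 RPM, SD, n = 2 each). As a share of miRNA reads it was 0.124% (95% Wilson interval 0.119 to 0.130) and 0.0703% (0.0667 to 0.0740) in NC, and 0.0744% (0.0715 to 0.0775) and 0.0978% (0.0943 to 0.102) in GAA. The groups overlapped as a share, in RPM GAA-1 exceeded NC-1 by 419 to 417, and the difference of the means had the opposite sign on the 2 scales, with a log2 ratio of 0.33 in RPM and -0.17 as a share. Without miR-6240 and miR-5099, a choice made after seeing the data, the sums were 57.7 and 57.3 RPM in NC and 94.7 and 82.7 RPM in GAA, or 0.0172%, 0.0131%, 0.0168% and 0.0164% of the miRNA reads. This remainder stood higher in GAA in RPM and overlapped between the groups as a share.

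For GAA against NC, limma on log2(RPM + 1) over all 869 miRNAs, with Benjamini-Hochberg adjustment, called none of the 189 members (FDR under 0.01, log2 fold change beyond 1 in either direction) and none of the 869 miRNAs (0% called). At an FDR under 0.05 the number was also 0 (0% of 869). The study applied the first of these thresholds to read counts with edgeR and listed changed miRNAs. The 0 here comes from limma on log2 values, and no count model was run. With 1 RPM added before the log, the 164 members with up to 9 reads in all could not reach a log2 fold change of 1. For them the call with the fold-change limit was fixed in advance. At an unadjusted p under 0.05 there were 12 members, 10 of them higher in GAA, against 152 miRNAs in all (17.5%). The smallest adjusted p from limma was 0.205, shared by miR-5099 and miR-6412. The median log2 fold change was 0.12 over the 189 members and 0.22 over the 869 miRNAs. Relative to miRNA reads it was 0.13 and 0.08, and with median-of-ratios factors 0.05 and 0.03. The 0.12 is the value of a member with 1 read in GAA-2 alone, such as miR-7068-5p. It is thus set by the step of 1 read and gives no shift of the members as a group.

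miR-6412 had the lowest log2 fold change of the members in RPM and relative to miRNA reads. It had 12 and 8 reads in NC but a single read in each GAA sample, which is 2.44, 1.69, 0.180 and 0.177 RPM. The groups did not overlap. The log2 fold change was -1.37 (SE 0.21, limma adjusted p = 0.205) on the log2(RPM + 1) scale and -2.25 (SE 0.47, limma adjusted p = 0.144) relative to miRNA reads. In the latter, 1 was added to larger values, so low members were shrunk less than in RPM. With median-of-ratios factors, brought to the size of the RPM values, the log2 fold change of miR-6412 was -1.61 (SE 0.31). From the 20 reads in NC and 2 in GAA the level in NC was 11.6 times that in GAA, with a 95% exact counting interval of 2.82 to 103. The interval pools the samples of a group and leaves out the spread between them. Both GAA values lie under what a sample without reads allows, so the size of the ratio is uncertain. The study listed miR-6412 as changed on these same samples, so the difference seen here is not independent evidence of its direction.

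In RPM the highest was that of miR-6944-3p, at 1.34 (SE 0.31, limma adjusted p = 0.206). Relative to miRNA reads it was 0.93 (SE 0.32, limma adjusted p = 0.465), below the 1.09 of miR-5112, a low member that this scale shrinks less. With median-of-ratios factors miR-6944-3p stood at 0.84, above the 0.65 of miR-5112. The other large differences in this direction were 0.99 (SE 0.24) for miR-5121, 0.92 (SE 0.18) for miR-5099, 0.83 (SE 0.21) for miR-8114 and 0.79 (SE 0.25) for miR-5112, with limma adjusted p-values from 0.205 to 0.272. miR-5112 had 0, 2, 5 and 7 reads, so both NC values lie under what a sample without reads allows. Relative to miRNA reads these 4 differences were 0.85, 0.45, 0.56 and 1.09. The difference for miR-8112 was 0.76 (SE 0.20) in RPM and 0.42 relative to miRNA reads.

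The next largest differences in the downward direction had unadjusted limma p-values above 0.05. They were -0.59 (SE 0.34) for miR-5107-3p, which had 6, 1, 1 and 0 reads, -0.59 (SE 0.68) for miR-5106, -0.36 (SE 0.30) for miR-6538 and -0.33 (SE 0.40) for miR-5100, with limma adjusted p-values from 0.429 to 0.612. For miR-5107-3p the lowest NC sample exceeded the highest GAA sample only through the sample totals, since each had 1 read. The log2 fold change of miR-6240 was -0.00 (SE 0.30) in RPM and -0.48 (SE 0.32) relative to miRNA reads.

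Among the 27 members read in all 4 samples, both GAA samples lay above both NC samples in 7 in RPM, against 56.5% of the 497 miRNAs read in all 4, and below them in 2, against 5.23%. The 7 were miR-5099, miR-5121, miR-6944-3p, miR-6994-5p, miR-7068-3p, miR-8112 and miR-8114, and the 2 were miR-6238 and miR-6412. miR-6238 had 1 read in every sample, so its order came from the sample totals alone. Relative to miRNA reads the numbers were 5 above (21.9% of the 497) and 3 below (19.1%), with miR-5099 and miR-7068-3p overlapping and miR-6538 joining the members below. The median log2 fold change of the 27 was 0.15 in RPM and 0.01 relative to miRNA reads, where the 497 had 0.42 and 0.02. The sign differed between these scales for miR-6516-5p and miR-7035-3p among the 27.

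**Figure D4:**
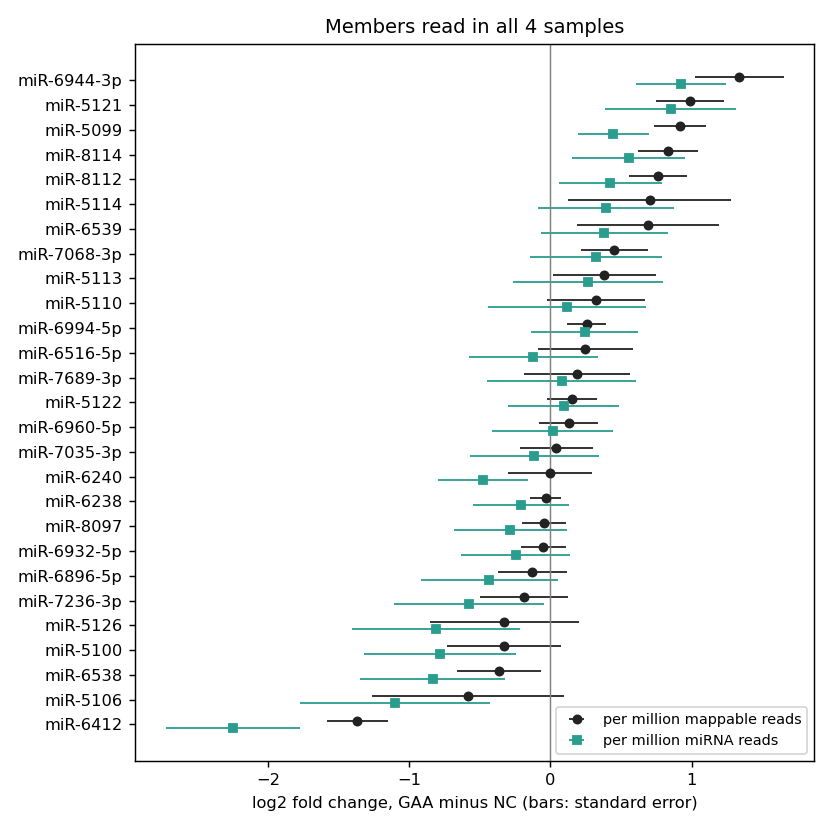
Log2 fold change of GAA against NC (horizontal axis) with its limma standard error (bars) for the 27 members read in all 4 samples, in RPM (circles) and relative to miRNA reads (squares). miR-6944-3p stands at 1.34 and 0.93 at the top and miR-6412 at -1.37 and -2.25 at the bottom, and most squares lie to the left of their circles.

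Members read in both samples of 1 group and in neither of the other were few and shallow. There were 13 of 189 in GAA, against 32 of 869 miRNAs (3.68%), and 1 in NC, against 7 (0.806%). Among the 680 other miRNAs there were 19 in GAA and 6 in NC. Both GAA samples held more miRNA reads than the NC samples, and these counts were not repeated at equal depth. The 1 in NC was miR-7676-3p, with 1 read in each sample. The deepest in GAA were miR-8094, within an exon of Ddx39b, with 3 and 2 reads, miR-6955-5p, within an intron of Gga1 at its 3′ end, with 2 and 3 reads, and miR-7663-3p and miR-7041-5p with 3 and 1 reads each. The other 9 had at most 2 reads in a sample. These levels lie at or under what a sample without reads allows, so no fold change is given.

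Both strands of a hairpin were seldom read. The members with an arm in the name came from 132 hairpins, of which 54 gave reads from the 5p strand alone, 53 from the 3p strand alone and 25 from both, and in 13 of these both strands were read within the same sample. The 79 members of the 5p arm held 222 reads and the 78 of the 3p arm 581, of which 355 were miR-6944-3p. Without it the 3p arm held 226 reads. Members without an arm in the name were 32, and they held 7823 reads and 17 of the 27 members read in all 4 samples.

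Only 3 hairpins had at least 20 reads over both arms. miR-6944 gave 355 reads of the 3p strand and 0 of the 5p strand, which allows a 5p share of up to 1.07% (upper 95% Wilson bound). miR-6516 gave 53 reads of the 5p strand and 5 of the 3p strand, so that the 5p strand held 91.4% (95% Wilson interval 81.4 to 96.3). In single samples this share was 100%, 90%, 91.3% and 84.6%, and the intervals of the 4 samples overlapped. miR-7068 gave 1 read of the 5p strand, in GAA-2, and 20 of the 3p strand with 3, 3, 5 and 9 reads per sample. Among the 25 hairpins read from both strands, the 5p strand held more reads in 10, the 3p strand in 10, and 5 were tied.

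The members fell into blocks of number that differed in depth. From 5000 up to 6000 there were 30 members, with 2725 reads, 2288 of them miR-5099. From 6000 up to 7000 there were 69 members with 5517 reads, of which 4788 were miR-6240. From 7000 up to 8000, 81 members shared 202 reads and none had more than 20. From 8000 on there were 9 members with 182 reads, mainly miR-8112 and miR-8114. The run from miR-6896 to miR-7093 alone held 99 members, of which 7 were read in all 4 samples, and 588 reads, which fell to 233 without miR-6944-3p.

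Most members of this run lay at a splice site. Of the 83 members of the run whose hairpin was in the reference table, 77 (92.8%) had a hairpin that ended within 2 nt of an intron border, against 6 of 69 members (8.70%) outside the run. miR-5121, whose hairpin also reaches a 5′ splice site, was counted with the small RNA genes and is not among them. In the table as a whole such hairpins were 186 of 414 (44.9%) for the late numbers and 24 of 591 (4.06%) for the other miRNAs. Within the range, 52.2% of the hairpins with reads and 41.4% of those without lay at a splice site. In and outside the run together, 83 members had a hairpin at a splice site. Of these, 76 had it at the 3′ splice site only and 4 at the 5′ splice site only. The other 3 had it at both, namely miR-6944-3p and the 2 strands of miR-7068.

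The annotated ends of these miRNAs lay close to the intron's end. Of 40 members of the 3p arm whose hairpin ended at a 3′ splice site, 38 had their last base within 2 nt of the hairpin's end and 30 (75%) ended in AG, the bases that close an intron, as miR-6944-3p and miR-7068-3p do. Of the other members of the 3p arm 5 of 29 (17.2%) ended in AG. Among 38 members of the 5p arm with a hairpin at a 3′ splice site, 34 began 5 nt into the hairpin. Members at splice sites numbered 85 when those without a hairpin in the table were placed by the mature sequence. These 85 held 562 reads, which is 207 without miR-6944-3p, and their median was 1 read over the 4 samples.

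The reads lay elsewhere. The 10 matched members outside genes held 4847 reads, 4788 of them miR-6240. The 16 in exons held 305 reads, the 43 inside introns 272, the 3 in small RNA genes 102 and the 7 opposite a gene 93. The 25 members without a RefSeq entry, among them miR-5099 with 2288 reads, were not placed. Read in all 4 samples were 7 of the 85 members at splice sites, 5 of the 16 in exons and 4 of the 43 inside introns. So were 2 of the 3 in small RNA genes, 3 of the 7 opposite a gene and 3 of the 10 outside genes. Of all 684 mature names of the range in the table, 164 (24.0%) had a read and 24 (3.51%) were read in all 4 samples, against 55.6% and 40.1% of the 995 other names.

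**Figure D5:**
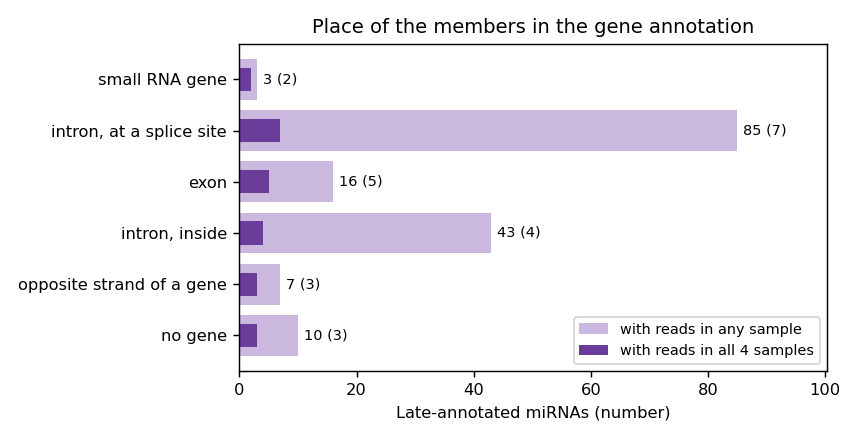
Number of late-annotated miRNAs with a RefSeq sequence (horizontal axis) by their place in the GENCODE annotation, with reads in any sample (light bars, first number) and in all 4 samples (dark bars, number in brackets). Introns at a splice site hold 85 members, of which 7 were read in all 4 samples, and exons hold 16, of which 5 were.

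In base composition the members stood above the other detected miRNAs. The median share of G and C was 55.0% over the 164 matched members and 47.6% over 553 other miRNAs, while the median length was 22 nt in both. A U at the first base, the base that Argonaute prefers, was found in 50.6% of the members and 40.5% of the others. Members with 10 or more reads had a median of 53.5% G and C and those with 1 read 58.1%.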

How the data were processed

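Small RNA-seq values of 2 NC and 2 GAA samples were used, grouped by their labels. The authors filtered the reads, mapped them to GRCm38 and divided the miRDeep2 counts of miRBase miRNAs by mappable reads. The deposited values are log2(RPM + 1) per miRNA. A missing miRNA was set to 0 reads. Reads were recovered from the equal steps of the RPM values, whole within 0.01 for 95.4% to 96.0% of the values of a sample and for all values of the members, while 49 miRNAs had a value that was not whole. The number of reads sets the precision of each level. No low-value filter was applied, so all 189 members entered the fit, though most could not pass the fold-change limit.

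Because the values are log2, limma 3.58.1 (R 4.3.3; lmFit, eBayes with trend) was run on all 869 miRNAs with a pseudocount of 1 RPM and no covariate, and called at an FDR under 0.01 with an absolute log2 fold change above 1. It was tested on simulated data in which only more abundant miRNAs were changed, by a large fold. That test does not cover members with few reads. The named members were those reaching 10 reads in every sample, the 10 most abundant, the 5 largest differences in each direction, miR-6412, hairpins with at least 20 reads, group-specific members with at least 3 reads, and the edges of the range. miR-5126, miR-6238, miR-6994-5p, miR-7035-3p, miR-7676-3p and the members listed for a shared seed were named after their values were seen. The members and lists were chosen with earlier results of these data known. Hairpin places came from RefSeq (GRCm38.p6) and GENCODE M21, leaving out retained-intron and unconfirmed transcript models, and 25 members without a RefSeq entry were not placed. Alternatives were other divisors, a pseudocount of 0.1 RPM, filters, thresholds, a replicate block and leaving out each sample. No batch is given in the labels.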

Additional observations from a re-analysis of the deposited data

How the results depend on the processing

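The limma call on members was 0 under every alternative (other divisors, a pseudocount of 0.1 RPM, filters of at least 10 reads or 1 RPM in every sample, which left 4 and 10 members, an FDR under 0.05, no trend, each sample left out at the thresholds of the report, where the lone sample is assumed to vary like the other group) but the replicate block with miRNA reads as divisor, which called 1 member, miR-6412 (log2 fold change -2.25, limma adjusted p = 0.003575). With that block and divisor 6 of all 869 miRNAs were called, so the call was not particular to miR-6412. The labels share replicate numbers, but same-numbered samples did not deviate together (r = -0.15 over 323 miRNAs), so the numbers were not taken as a pairing. At an FDR under 0.05 with no limit on the fold change, 0 members were called with all samples and without either NC sample, but 47 without GAA-1 and 42 without GAA-2 (103 and 97 of all miRNAs), a combination added after seeing the data. Without a GAA sample the spread of a member came from the NC samples alone, and it was 0 for members with no reads in NC. Those calls cannot tell a few reads in the lone GAA sample from a difference, so no difference is drawn from them. The replicate block alone called 0 members, and the crossed pairing, added after seeing the data, called 0. Of 267 log2 fold changes of named members under alternatives 8 changed sign. The sum's log2 ratio, 0.33 in RPM, became -0.17 per miRNA reads and -0.20 with median-of-ratios factors. Detected members per sample (NC-1, NC-2, GAA-1, GAA-2) fell to 28, 34, 48 and 47 at 2 reads, 18, 14, 17 and 19 at 5, and 10, 8, 9 and 12 at 10, and those in all 4 samples to 16, 10 and 4. Members in both GAA samples and neither NC sample became 4, 2 and 1 at 2, 5 and 10 reads, and 20 to 45 with a sample left out, since 1 sample then stands for a group. In NC they became 0 at 10 reads, and 3 to 21 with a sample left out. Hairpins read from both arms whose 5p arm led were 1 at 20 reads and 2 at 10 reads. The perfect matches of the sequences in the genome were not run.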
